A study of Mus musculus with 6 samples.

Results

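The genes described here are 10 genes of the monocyte and macrophage lineage (Ly6c2, Ccr2, Fcgr3, Cd14, Cybb, Cd68, Lyz2, Adgre1, C1qa and C1qb), taken by symbol from the deposited expression tables, where all 10 were found among 21851 genes. The tables come from RNA-seq of wild-type mouse bone marrow cells that the labels call long-term haematopoietic stem cells (LT-HSCs), sorted as lineage-negative, KIT-positive and SCA1-positive cells without surface CD34 or CD135. For 3 months the mice ate either a control diet (3 libraries, CD) or one high in cholesterol (3 libraries, HCD), and HCD was compared with CD to see which transcripts differ after the diet. The sources used here do not give strain, sex, age or the animals behind each library, so a p-value reflects the spread between libraries, which may be technical. Values are FPKM, reads or fragments scaled to transcript length and to library depth, and so can be set side by side between genes. They summed to 427219 to 462370 per library, at an estimated depth of 18860000 to 19970000 reads or fragments.

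Classical monocytes arise in the bone marrow from granulocyte and monocyte progenitors, carry the LY6C surface protein and need the chemokine receptor CCR2 to leave for the blood. Macrophages resident in the marrow engulf dying cells and the nuclei of maturing red cells, and they are a main source of C1q, the protein that starts the classical complement pathway. Phagocytes of both kinds share lysosomal proteins, receptors for antibodies and bacterial products, and an oxidase that makes superoxide.

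Under HCD, 5 of the 10 genes rose, 2 fell, 1 did not pass the test and 2 were too low to be tested. Ly6c2, a surface protein gene of classical monocytes and their progenitors, was 4.09-fold higher, and Fcgr3, the gene of a low-affinity antibody receptor, was 3.76-fold higher. Ccr2, Cybb and Cd68 rose by smaller amounts in FPKM. The complement genes C1qa and C1qb fell to 0.30 and 0.35 of their CD levels. The limma fit took the 10676 genes that reached 1 FPKM in 3 or more libraries, and 13.9% of genes passed an adjusted p of 0.05, 6.28% higher and 7.66% lower. Of the 10 genes, 8 had groups of libraries that did not overlap, against 29.9% of all genes above 0 in at least 1 library. The median log2 change of the 8 tested genes was 0.42, against -0.03 over all tested genes. C1qa and C1qb reached 1 FPKM only in CD libraries and Cybb only in HCD libraries. These 3 thus passed the filter through the group in which they were high, and the count leans towards change for that reason.

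Promoters of the genes with the largest changes, with that of C1qc, the third C1q chain gene, are shown as the stretch of 250 bases that ends just before the RefSeq transcription start (GRCm38.p6, 5′ to 3′ on the gene's own strand, most upstream start where RefSeq has several). Capitals mark GAGGAA, the core of sites for PU.1 and other ETS factors, TTGCNNAA, a C/EBP core, and TGCTGA, a core of MAF sites, each searched on both strands.
C1qb, chr4:136886201-136886450, minus strand: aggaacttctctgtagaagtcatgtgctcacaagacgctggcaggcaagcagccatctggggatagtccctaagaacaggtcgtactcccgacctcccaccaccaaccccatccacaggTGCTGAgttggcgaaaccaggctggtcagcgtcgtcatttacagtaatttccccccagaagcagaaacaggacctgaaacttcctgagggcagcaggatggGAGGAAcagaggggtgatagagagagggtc
C1qc, chr4:136892915-136893164, minus strand: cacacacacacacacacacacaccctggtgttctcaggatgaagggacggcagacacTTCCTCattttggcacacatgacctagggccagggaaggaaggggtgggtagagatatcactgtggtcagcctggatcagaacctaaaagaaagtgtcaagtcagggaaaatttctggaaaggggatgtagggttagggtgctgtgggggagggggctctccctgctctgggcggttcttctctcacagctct
Ly6c2, chr15:75111972-75112221, minus strand: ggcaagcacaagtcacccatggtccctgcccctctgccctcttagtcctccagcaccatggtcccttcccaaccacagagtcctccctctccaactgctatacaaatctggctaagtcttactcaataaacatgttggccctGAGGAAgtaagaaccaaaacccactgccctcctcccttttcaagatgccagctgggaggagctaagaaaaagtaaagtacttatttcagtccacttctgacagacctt
Fcgr3, chr1:171059404-171059653, minus strand: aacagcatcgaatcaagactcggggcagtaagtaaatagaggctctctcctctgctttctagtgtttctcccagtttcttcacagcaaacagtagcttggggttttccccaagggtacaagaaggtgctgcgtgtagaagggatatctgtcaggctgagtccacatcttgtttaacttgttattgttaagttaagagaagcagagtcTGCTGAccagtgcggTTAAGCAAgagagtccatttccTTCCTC
The C1qb stretch held 1 GAGGAA, which began 30 bases before the start, and 1 TGCTGA, which began 131 bases before it. The Ly6c2 stretch held GAGGAA alone among the searched letters, 108 bases before the start. In Fcgr3 all 3 motifs lay within 43 bases of the start, GAGGAA and TTGCNNAA on the opposite strand. This RefSeq start lies inside the Fcgr3 gene as GENCODE places it (171051174 to 171064935, minus strand), downstream of its annotated 5′ end. C1qc held GAGGAA on the opposite strand, 193 bases before the start. Its stretch lies partly inside the C1qc gene as GENCODE places it (136889804 to 136893065, minus strand). RefSeq promoters were matched for 7 of the 10 genes, and GAGGAA stood in 4 of these 7, TTGCNNAA in 2 and TGCTGA in 3. Among all 32851 promoter stretches of this length, 23.3% held GAGGAA, 9.6% held TTGCNNAA and 16.1% held TGCTGA. C1qa, Cd14 and Adgre1 were not matched. Of the matched stretches not shown, that of Cybb lies inside its GENCODE gene, and those of Ccr2 and Lyz2 lie partly inside theirs. These are matches of letters, and binding was not measured.

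**Figure D1:**
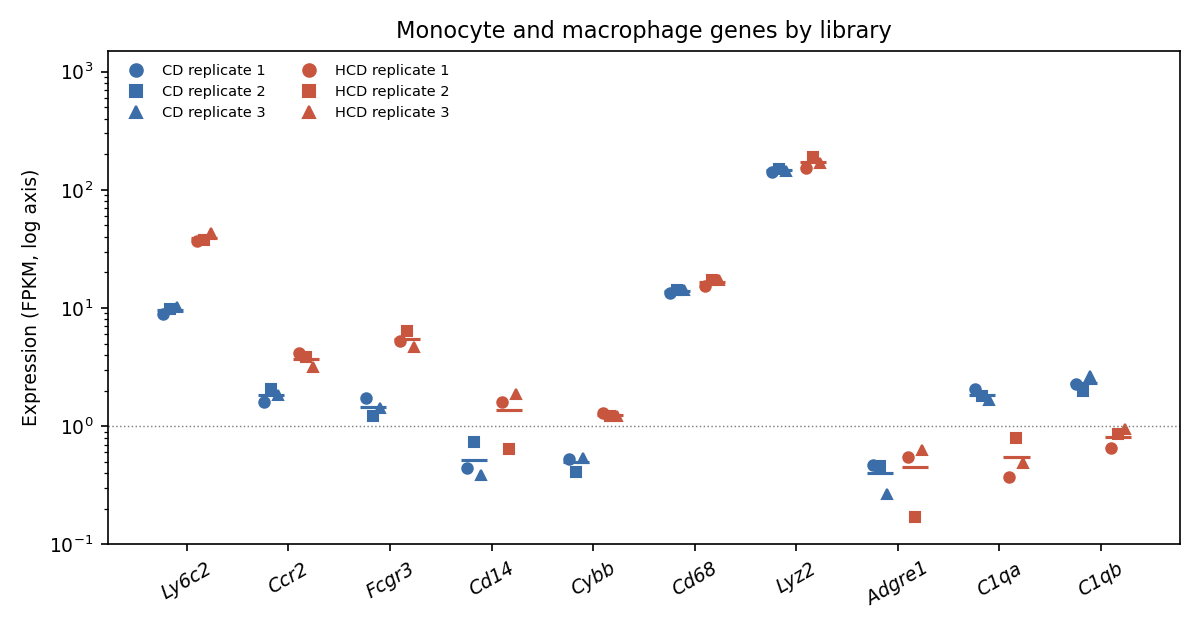
Expression in FPKM (log axis) of the 10 genes in each library, with CD in blue, HCD in red, the marker shape giving the replicate, a bar at each group mean and a dotted line at 1 FPKM. HCD libraries lie above all CD libraries for Ly6c2, Ccr2, Fcgr3, Cybb, Cd68 and Lyz2 and below them for C1qa and C1qb, while Cd14 and Adgre1 overlap.

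Ly6c2 encodes a lipid-anchored protein of the LY6 family (chromosome 15, 75108158 to 75111970, GRCm38, protein-coding). It measured 8.94, 9.77 and 10.2 FPKM in CD replicates 1, 2 and 3 and 36.9, 37.9 and 43.3 FPKM in HCD replicates 1, 2 and 3. The 3 HCD libraries lay close together, each more than 3 times above every CD library. The group means were 9.63 ± 0.63 and 39.4 ± 3.44 FPKM (SD, n = 3), a log2 change of 1.92 ± 0.08 (standard error, on log2(FPKM + 1); limma adjusted p = 5.16e-06). Its near copy Ly6c1 contains 32.6% of the stretches of 50 bases of the Ly6c2 transcript, so reads can be shared between them. Ly6c1 itself was listed at 0.06 to 0.22 FPKM under CD and 0.22 to 0.41 under HCD. In the Ly6 family list of 9 related genes, 0 of the 3 tested genes passed by limma, and 0 had an unadjusted p under 0.05. They included Ly6a, which encodes the sort marker SCA1, and Ly6e at 267 to 299 FPKM.

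Ccr2, the receptor for monocyte chemokines (chromosome 9, 124101950 to 124113557), measured 1.59, 2.05 and 1.85 FPKM under CD and 4.12, 3.85 and 3.17 under HCD. The lowest HCD library was above the highest CD library. The means were 1.83 ± 0.23 and 3.72 ± 0.49 FPKM, 2.03-fold apart (log2 change 0.74 ± 0.11, limma adjusted p = 0.005). In a list of 13 genes of chemokines and trafficking, 1 of 7 tested rose and 0 fell by limma (0 lower at an unadjusted p under 0.05). The riser was Ccl2, a chemokine that binds CCR2, at 0.44 ± 0.27 FPKM under CD and 1.29 ± 0.24 under HCD (limma adjusted p = 0.0212), and it passed the filter through the HCD libraries alone. The CCR2 ligand genes Ccl7, Ccl8 and Ccl12 were listed at 0 in all 6 libraries. Cx3cr1, a receptor gene of non-classical monocytes, was at 0.88 to 1.40 FPKM under CD and 0.98 to 1.39 under HCD.

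Fcgr3 encodes CD16, a low-affinity antibody receptor (chromosome 1, 171051174 to 171064935). It measured 1.72, 1.21 and 1.42 FPKM under CD and 5.22, 6.41 and 4.70 under HCD. The HCD libraries were all well above the CD range, with replicate 2 the highest. The means were 1.45 ± 0.26 and 5.44 ± 0.88 FPKM (log2 change 1.39 ± 0.12, limma adjusted p = 0.000609). The neighbouring inhibitory receptor gene Fcgr2b shares 12.8% of the Fcgr3 stretches of 50 bases. Fcgr2b rose less, from 9.53 ± 0.68 to 13.5 ± 1.59 FPKM (limma adjusted p = 0.015). In the list of 10 Fc receptor and signalling genes, 3 of 7 tested rose and 0 fell by limma (0 lower at an unadjusted p under 0.05). The others that rose were Fcer1g, the signalling chain that CD16 needs at the cell surface, from 21.0 ± 2.07 to 30.1 ± 1.28 FPKM, and Fcgrt, the neonatal Fc receptor gene, from 6.23 ± 0.41 to 9.02 ± 1.09. Fcgr1 and Fcgr4, antibody receptor genes of mature monocytes and macrophages, stayed below 0.33 FPKM in all libraries.

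Cd14, the co-receptor for bacterial lipopolysaccharide (LPS), was low and uneven. It measured 0.44, 0.73 and 0.38 FPKM under CD and 1.60, 0.64 and 1.86 under HCD. HCD replicates 1 and 3 were above every CD library, while HCD replicate 2 was inside the CD range. With only 2 libraries at 1 FPKM it did not enter the main test, and with no filter on low values the difference did not pass (log2 change 0.61, limma adjusted p = 0.15). Of 12 tested genes of LPS and toll-like receptor signalling, 3 rose and 0 fell by limma (1 lower at an unadjusted p under 0.05). They were Lbp (LPS-binding protein), from 18.3 ± 0.46 to 23.6 ± 0.72 FPKM, the adaptor gene Myd88, from 25.5 ± 1.04 to 30.1 ± 0.66, and Ly96, which encodes the MD-2 partner of TLR4, from 3.15 ± 0.38 to 5.13 ± 1.19. Tlr4 was at 2.04 to 2.49 FPKM under CD and 2.19 to 2.71 under HCD.

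Cybb encodes gp91phox, the catalytic subunit of the phagocyte NADPH oxidase (chromosome X, 9435252 to 9487771). It measured 0.53, 0.41 and 0.54 FPKM under CD and 1.30, 1.21 and 1.22 under HCD. The HCD libraries agreed within 0.1 FPKM of each other and stood above all CD libraries. The means were 0.494 ± 0.074 and 1.246 ± 0.049 FPKM, 2.52-fold apart (log2 change 0.59 ± 0.10, limma adjusted p = 0.00715). Of the 7 tested partner genes of the oxidase, 0 rose and 0 fell by limma, and at an unadjusted p under 0.05 there were 1 higher and 1 lower. Cyba, the membrane partner of gp91phox, was at 76.4 to 86.8 FPKM under CD and 70.5 to 90.7 under HCD, far above Cybb. The cytosolic subunit gene Ncf1 was at 42.0 to 43.2 FPKM under CD and 40.9 to 43.8 under HCD.

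Cd68 and Lyz2 encode a lysosomal membrane glycoprotein and lysozyme of myeloid cells. Cd68 (chromosome 11, 69664213 to 69666153) measured 13.4, 14.1 and 14.1 FPKM under CD and 15.4, 17.2 and 17.3 under HCD. The groups did not overlap, at means of 13.9 ± 0.44 and 16.6 ± 1.06 FPKM (log2 change 0.25 ± 0.06, limma adjusted p = 0.039). The call was lost in 6 of 13 alternatives, with adjusted p from 0.0281 to 0.145 over all 13, among them leaving out any CD library or HCD replicate 3.
Lyz2 (chromosome 10, 117277331 to 117282321) measured 142, 150 and 145 FPKM under CD and 153, 191 and 169 under HCD. Every HCD library was above every CD library, and HCD replicate 2 was the highest. The means of 146 ± 4.13 and 171 ± 19.1 FPKM did not differ past the threshold (log2 change 0.22 ± 0.08, limma adjusted p = 0.0819). With the replicate number as a block, Lyz2 passed (adjusted p = 0.0239), as it did without HCD replicate 1 (0.0427), without HCD replicate 2 (0.0444) and with quantile normalization (0.0367). Its neighbour and near copy Lyz1 shares 15.4% of the Lyz2 stretches of 50 bases and was listed at 0 to 0.62 FPKM.
Of 15 tested genes of lysozyme and the phagocyte lysosome, 4 rose and 0 fell by limma (0 lower at an unadjusted p under 0.05). They were the cathepsin genes Ctsb, from 37.3 ± 1.02 to 45.3 ± 3.51 FPKM, and Ctsl, from 7.58 ± 1.0 to 9.96 ± 0.63, the progranulin gene Grn, from 48.0 ± 2.42 to 58.1 ± 4.94, and Lamp2, from 39.2 ± 1.58 to 45.6 ± 2.33.

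**Figure D2:**
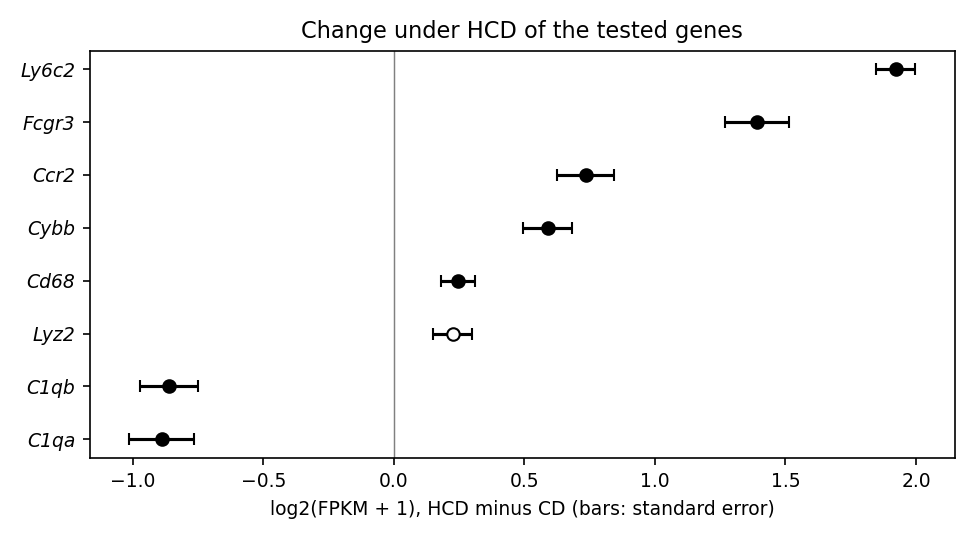
Difference between HCD and CD on the log2(FPKM + 1) scale for the 8 tested genes, with standard errors (n = 3 libraries per group); filled points passed a limma adjusted p of 0.05. Ly6c2 (1.92) and Fcgr3 (1.39) stand apart from Cd68 (0.25) and the open point of Lyz2 (0.22), and C1qa (-0.89) and C1qb (-0.86) lie on the other side of 0.

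Among macrophage genes, C1qa and C1qb fell and Adgre1 was too low to be tested. Cd68, Cybb and Fcgr3, of the kinds that monocytes and macrophages share, rose as given above. Adgre1, an adhesion receptor gene used as a surface marker of macrophages, was the lowest of the 10, at 0.47, 0.46 and 0.27 FPKM under CD and 0.55, 0.17 and 0.63 under HCD. The groups overlapped, no library reached 1 FPKM, and with no filter the change was 0.04 (limma adjusted p = 0.886).
C1qa and C1qb encode the A and B chains of C1q. They lie with C1qc within 18675 bases of chromosome 4 (136880129 to 136898803, GRCm38), all on the minus strand and in the order C1qb, C1qc, C1qa, with no other annotated gene among them. C1qa measured 2.07, 1.81 and 1.67 FPKM under CD and 0.37, 0.79 and 0.48 under HCD. C1qb measured 2.26, 2.0 and 2.65 FPKM under CD and 0.66, 0.85 and 0.94 under HCD. For both genes all HCD libraries were below 1 FPKM and all CD libraries above it.
C1qa fell from 1.85 ± 0.21 to 0.55 ± 0.22 FPKM, 3.38-fold (log2 change -0.89 ± 0.12, limma adjusted p = 0.00373), and C1qb from 2.30 ± 0.33 to 0.82 ± 0.14, 2.82-fold (log2 change -0.86 ± 0.11, adjusted p = 0.00274). A pseudocount of 1 shrinks changes at such levels, and with 0.1 the log2 changes were -1.64 for C1qa, -1.39 for C1qb and 1.19 for Cybb. At the estimated depth, these values stand for about 110 reads of C1qa in the CD libraries together against 34 in the HCD libraries, and for about 143 against 52 of C1qb. C1qc, which encodes the third chain, measured 1.77, 2.79 and 1.28 FPKM under CD and 0.31, 1.25 and 0.56 under HCD. Its groups did not overlap either, but its spread was wider and it missed the threshold (log2 change -0.79 ± 0.23, limma adjusted p = 0.0553). None of the 3 chain genes shares a stretch of 50 bases with another. Summed over the chains, the CD libraries held 5.60 to 6.60 FPKM and the HCD libraries 1.34 to 2.90, with HCD replicate 2 the highest of its group. C1qa made up 27.5% to 34.0% of this sum under CD and 24.4% to 27.6% under HCD.

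Of 10 tested genes of complement and its receptors other than C1qa and C1qb, 3 rose and 0 fell by limma (1 lower at an unadjusted p under 0.05, C1qc). C4b rose from 1.29 ± 0.14 to 3.61 ± 0.56 FPKM, C3, the central complement component, from 1.10 ± 0.30 to 3.44 ± 0.55, and Itgam, which encodes the CD11b chain of a complement receptor of myeloid cells, from 10.9 ± 0.13 to 15.4 ± 1.91. The receptor genes C3ar1 and C5ar1 stayed below 0.05 FPKM in every library.

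Among 20 genes of resident macrophages, 7 were tested, of which 0 rose and 2 fell by limma (0 higher and 5 lower at an unadjusted p under 0.05), with a median log2 change of -0.33 against -0.03 over all tested genes. Hmox1, the haem oxygenase gene, fell from 5.69 ± 0.24 to 2.93 ± 0.03 FPKM (limma adjusted p = 0.000843). Vcam1, an adhesion molecule gene of marrow macrophages and stroma, fell from 1.38 ± 0.04 to 0.61 ± 0.28 (limma adjusted p = 0.0231). Vcam1 and Cd163, both among the 5 lower, passed the filter through the CD libraries alone, so the counts of this list lean towards falls. Counted without a test, 10 of the 20 had every HCD library below every CD library and 1, Trem2, the reverse. Over the 15603 genes above 0 in at least 1 library, 17.3% had HCD below CD in this way and 12.5% above. The 10 included Cd163, a haemoglobin scavenger receptor gene, at 1.21 ± 0.04 and 0.82 ± 0.04 FPKM, Cd5l at 0.92 ± 0.27 and 0.31 ± 0.12, and the mannose receptor gene Mrc1 at 0.50 ± 0.12 and 0.25 ± 0.07. Ms4a7 was at 0.09 to 0.25 FPKM under CD and listed at 0 in all HCD libraries. Folr2 and Lyve1 were listed at 0 everywhere, and Spic, a factor of red pulp and marrow macrophages, overlapped at 0.96 to 1.81 and 0.47 to 1.66 FPKM.
The summed level of the whole list was 30.7 to 31.1 FPKM under CD and 23.8 to 24.1 under HCD, mostly from Sirpa and Hmox1. Over the 16 genes that stayed under 5 FPKM and above 0 somewhere, a subset chosen after its values were seen, the sum was 11.2 to 11.4 FPKM under CD and 7.0 to 7.3 under HCD. In bulk RNA, fewer cells of a type and less RNA per cell cannot be told apart. The part of these transcripts in the falls of C1qa and C1qb was not tested.

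**Figure D3:**
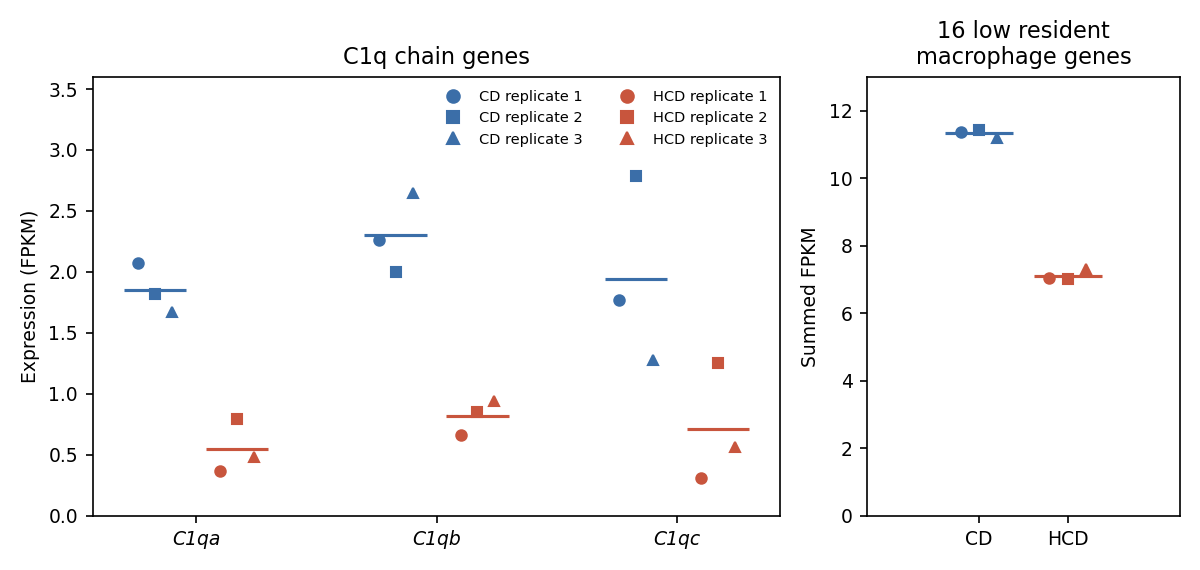
Left, expression in FPKM of the 3 C1q chain genes in each library; right, the summed FPKM of 16 resident macrophage genes under 5 FPKM. Points are libraries (CD blue, HCD red, shape for the replicate) and bars are group means; all HCD points lie below all CD points in each column, and the sums are 11.2 to 11.4 under CD and 7.0 to 7.3 under HCD.

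Of 18 genes of the monocyte list 10 were tested, with 7 rises and 1 fall by limma and a median log2 change of 0.51, against -0.03 over all tested genes. Counted without a test, 9 of the 18 had every HCD library above every CD library and 2 the reverse. Over all genes above 0 in at least 1 library these shares were 12.5% and 17.3%. F13a1, which encodes a coagulation factor chain made by monocytes, rose from 4.41 ± 0.15 to 10.2 ± 0.49 FPKM (limma adjusted p = 0.000118), Ms4a6c from 14.4 ± 0.12 to 24.9 ± 2.75, the chemokine gene Ccl9 from 30.04 ± 1.383 to 45.5 ± 3.47 and S100a4 from 8.01 ± 1.53 to 13.4 ± 0.29. Csf1r, the receptor gene for the main growth factor of monocytes and macrophages, was among the 7 (limma adjusted p = 0.0151), at 6.11 to 6.57 FPKM under CD and 8.19 to 9.38 under HCD. The gene that fell was Mpeg1, which encodes a pore-forming protein of macrophages, at 16.6 to 19.3 FPKM under CD and 12.9 to 14.8 under HCD (limma adjusted p = 0.0136). Csf1r and Mpeg1 were chosen after their values were seen. Of 10 tested transcription factor genes of the lineage, 2 rose and 0 fell by limma (0 lower at an unadjusted p under 0.05). Klf4 rose from 6.93 ± 0.80 to 31.1 ± 11 FPKM, with HCD replicate 2 at 18.9 against 34.2 and 40.2 in HCD replicates 1 and 3, and Irf5 rose from 7.95 ± 0.28 to 9.81 ± 0.34. The lineage regulators Spi1 (PU.1), at 58.7 to 62.6 and 61.1 to 72.0 FPKM, and Irf8, at 27.5 to 29.2 and 27.6 to 29.2, did not pass.

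**Figure D4:**
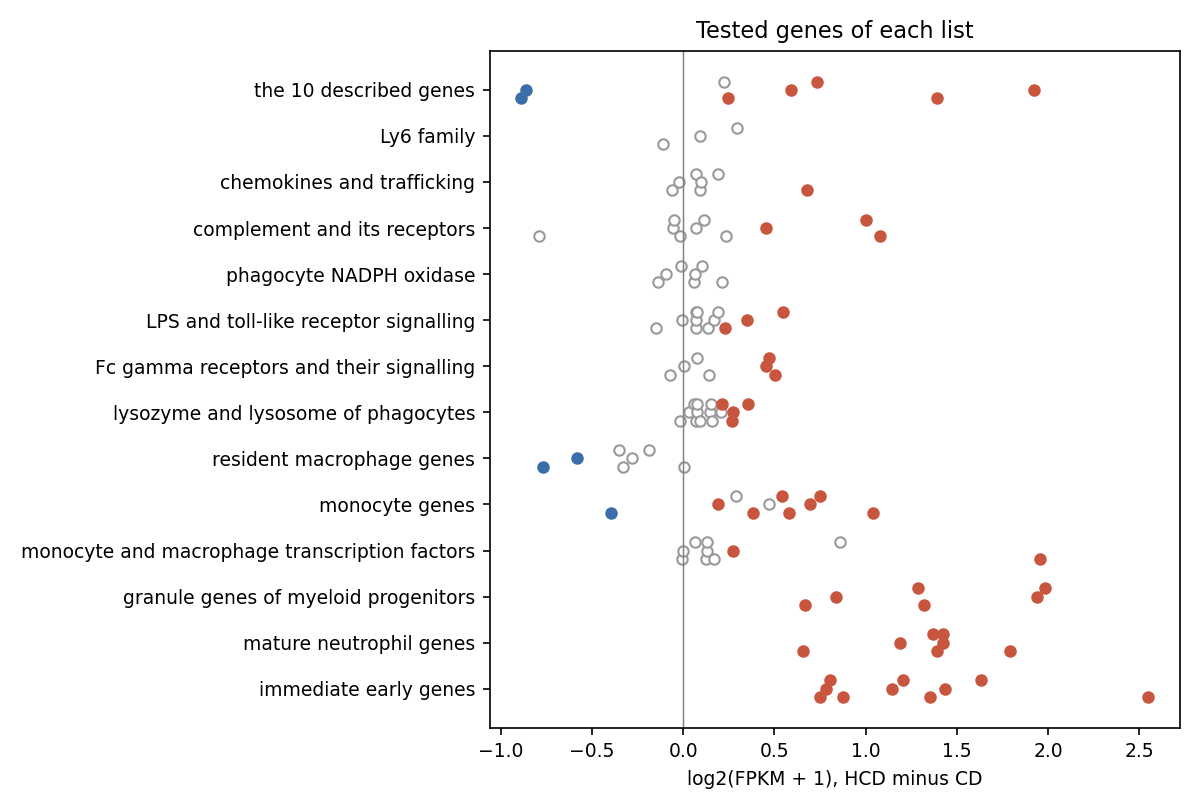
Difference between HCD and CD on the log2(FPKM + 1) scale for each tested gene of the lists, in rows; red points rose and blue points fell at a limma adjusted p of 0.05, and open grey points did not pass. The monocyte row lies mostly to the right of 0 and the resident macrophage row at or to the left of it, while the progenitor granule, neutrophil and immediate early rows lie to the right throughout.

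Genes of the granule and neutrophil lists rose too, but not all other lists did. By limma, 2 of 3 tested dendritic cell genes, 1 of 4 B cell genes and 1 of 5 erythroid genes fell, and 0 rose. All 6 genes of granules in myeloid progenitors rose, among them Elane (neutrophil elastase), from 44.8 ± 1.14 to 180 ± 4.74 FPKM, and the list sum went from a range of 871 to 899 FPKM to 1613 to 1785. All 7 tested of 11 mature neutrophil genes rose, 4 of them through the HCD libraries alone at the filter, and that sum went from 13.4 to 13.6 FPKM to 43.2 to 52.7. S100a8 rose from 4.81 ± 0.91 to 19.1 ± 2.58 FPKM. The part of progenitor or neutrophil transcripts in the rises of Ly6c2, Fcgr3, Ccr2 and Cybb was not tested. All 10 immediate early genes, which also respond to the handling of cells, rose, and their sum was 2677 to 2846 FPKM under CD and 5156 to 6442 under HCD.
The gate itself was checked against its transcripts. Kit (120 ± 3.17 FPKM, SD over 6 libraries) and Ly6a (64.2 ± 3.59) were high, but Cd34 (464 ± 16) and Flt3, which encodes CD135 (109 ± 5.73), were high too, although the labels describe cells without these proteins at the surface. Slamf1, a surface marker gene of LT-HSCs, averaged 2.60 FPKM and Cd48, one of multipotent progenitors, 70.2. The libraries are for this reason named by their label only.

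By rank of the mean over all 6 libraries, which pools both diets, Lyz2 exceeded 96.9% of the tested genes, Ly6c2 70.9% and Cd68 55.7%. Fcgr3 exceeded 15.9%, Ccr2 12.0%, C1qb 4.9% and C1qa 2.2%. Under CD the order of levels was Lyz2, Cd68, Ly6c2, C1qb, C1qa, Ccr2, Fcgr3, Cd14, Cybb and Adgre1, and the library values of neighbours from C1qb to Fcgr3, and from Cd14 to Adgre1, overlapped. Under HCD it was Lyz2, Ly6c2, Cd68, Fcgr3, Ccr2, Cd14, Cybb, C1qb, C1qa and Adgre1. Values of Lyz2, Ly6c2, Cd68, Fcgr3 and Ccr2 did not overlap their neighbours there. From Cd14 to Adgre1, neighbouring genes overlapped except Cybb and C1qb.

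The profiles nearest to each gene were sought among all tested genes by the root mean square difference over the 6 libraries, each gene centred on its mean, on the log2(FPKM + 1) scale. The pseudocount shrinks the differences of low genes, so genes with unlike ratios can lie near each other, as Cybb, which rose from 0.494 to 1.246 FPKM, and Haghl, which went from 14.4 to 21.9. Nearest to Ly6c2 was Elane (0.095), then the haptoglobin gene Hp (0.157) and Klf6 (0.169). Nearest to Fcgr3 were Mmp14 (0.053) and the mature neutrophil genes Lcn2 (0.117) and Wfdc21 (0.128), both tested through the HCD libraries alone. Ccr2 was nearest to Tlr12 (0.082), Anxa3 (0.089) and Thy1 (0.089), and Cybb to Haghl (0.031), Msrb1 (0.049) and Kcnip3 (0.052). C1qb was nearest to Shisa8 (0.103), Hmox1 (0.105) and Itgb5 (0.110), and C1qa to Itgb5 (0.106), Ccnd1 (0.117) and Idi1 (0.132). Cd68, with its small change, was nearest to Tceal8 (0.022), Sugp1 (0.030) and Tmem9 (0.032). The centring keeps the difference between diets, which all these genes share with their partner.

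HCD replicate 2 stood apart from the other HCD libraries on the second principal component, at -14.66 against 7.81 and 10.11. Among the 10 genes it deviated most from the mean of HCD replicates 1 and 3 for Cd14 (-0.74 on the log2(FPKM + 1) scale) and Adgre1 (-0.44), which were lower in it, and for C1qa (0.33), Fcgr3 (0.32) and Lyz2 (0.25), which were higher. All 10 immediate early genes were lower in HCD replicate 2, with a median deviation of -0.36, and the deviations of all tested genes ran from -0.565 at percentile 2.5 to 0.319 at percentile 97.5. Ly6c2 (-0.08), Cybb (-0.03), Ccr2 (0.07), Cd68 (0.07) and C1qb (0.05) deviated little. Without HCD replicate 2 the called genes kept their calls, with log2 changes of 1.95 for Ly6c2, 1.29 for Fcgr3, 0.71 for Ccr2, 0.60 for Cybb, 0.22 for Cd68, -1.0 for C1qa and -0.88 for C1qb.

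**Figure D5:**
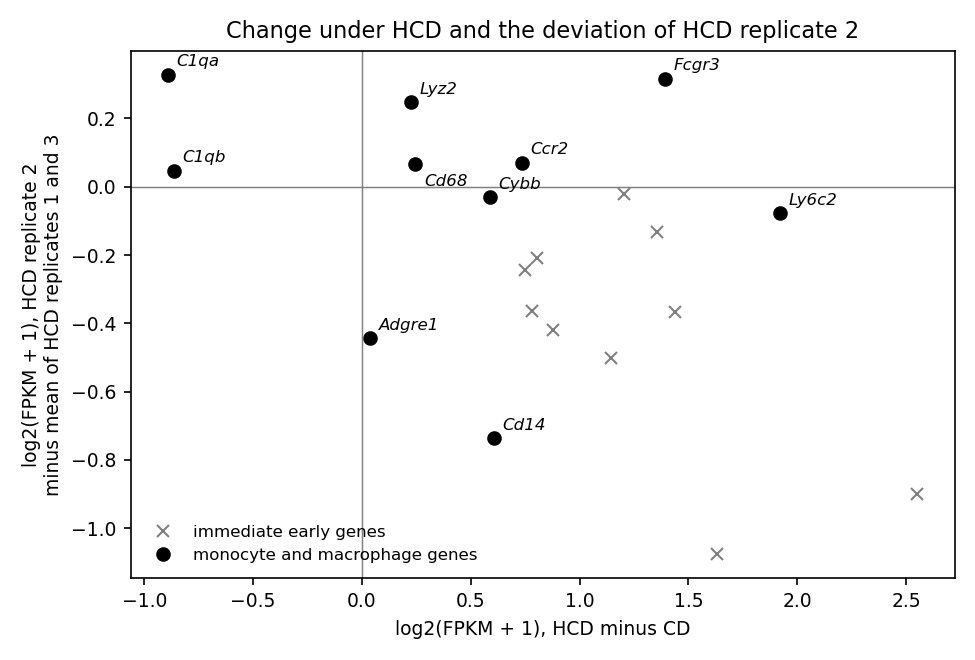
For each of the 10 genes (black) and 10 immediate early genes (grey crosses), the difference between HCD and CD (x axis) against the deviation of HCD replicate 2 from the mean of HCD replicates 1 and 3 (y axis), both on the log2(FPKM + 1) scale. Cd14 (-0.74) and Adgre1 (-0.44) lie low with the immediate early genes, which are all below 0, while C1qa, Fcgr3 and Lyz2 lie above 0.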

How the data were processed

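Expression was measured by RNA-seq in 6 libraries, 3 per diet. Per the labels' protocols, RNA was extracted from sorted cells and stranded mRNA libraries were made. Per the submitters' processing notes, the authors used HISAT2, StringTie and fastp with build GRCm38 (mm10); the sources used here give no versions, annotation or filters. That the deposited unit is FPKM was read from the values, since the headers hold only sample names. Of the 21878 rows of each file, 27 carried a date in place of a symbol (0.127% of the FPKM) and were left out. FPKM sums ranged from 427219 to 462370 per library, and no pair of libraries was identical.

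Diets were compared with limma 3.58.1 (R 4.3.3) on log2(FPKM + 1), two-sided, with trended and robust variance moderation. It covered the 10676 genes that reached 1 FPKM in 3 or more libraries, all of which entered the Benjamini-Hochberg adjustment, at a threshold of 0.05. It was tested on simulated data, in which only genes with more reads than C1qa, C1qb, Cybb and Fcgr3 had under CD were changed. The simulation does not cover changes of genes at such levels. TMM (trimmed mean of M values) factors were computed from the FPKM. Libraries left out in turn kept the same tested genes. The 10 genes, the lists, the tests and the alternatives were chosen with earlier results of these data known. Named besides the 10 are up to 4 genes of each list with the smallest adjusted p past 0.05, the gate genes and the 3 nearest profiles of each called gene; genes named beyond this, such as list members that did not pass, were chosen after their values were seen. The gene Cybc1 of the oxidase list and Trac of the T cell list matched no symbol. Some genes of the lists are counted but not reported here by name.

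Deviations from the group means correlated over genes at 0.103, 0.292 and 0.166 for the same-numbered libraries 1, 2 and 3. Other pairs ran from -0.25 to 0.098, so the replicate 1 pair was hardly above the highest of them. The labels do not say that the numbers pair. The step of 1 read in low values of genes with 1 transcript gave estimated depths per library of 18860000 to 19970000 reads or fragments. Of these values 40.1% to 47.6% lay within 0.05 of a whole number of reads, against at most 10.1% at wrong depths, so read numbers are approximate. Positions and lengths are from GENCODE vM21 (GRCm38) and promoter sequences from RefSeq (GRCm38.p6).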

Additional observations from a re-analysis of the deposited data

How the results depend on the processing

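The alternatives were TMM factors, quantile normalization, filters of 0 and 5 FPKM, 0.1 as the pseudocount, the replicate block, removal of the trend with transcript length and leaving out each library. Ly6c2 kept its call in all 13 alternatives (log2 change 1.85 to 2.02), and Ccr2 (0.67 to 0.98), Fcgr3 (1.29 to 1.84), Cybb (0.53 to 1.19), C1qa (-1.64 to -0.81) and C1qb (-1.39 to -0.79) in the 12 in which they were tested. With the filter of 5 FPKM, only Ly6c2, Cd68 and Lyz2 of the 10 genes remained to be tested, and 2 passed, 2 higher and 0 lower, because the others are too low (by limma 0 lower also at an unadjusted p under 0.05). Cd68 lost its call with no filter (0.25, adjusted p = 0.0619), with the length trend removed (0.22, adjusted p = 0.0556) and without CD replicate 1, 2 or 3 or HCD replicate 3 (log2 change 0.22 to 0.30 over all libraries left out). Lyz2 gained a call with quantile normalization (0.21), with the replicate block (0.22) and without HCD replicate 1 or 2 (0.14 to 0.30 over all libraries left out). The block changed no other call among the 10 genes and gave 1873 calls over all genes, against 1488. With a library left out, that count was 439, 556 and 513 for CD replicates 1, 2 and 3, and 711 and 2707 for HCD replicates 1 and 2. The split of 670 higher and 818 lower became 793 and 624 with TMM factors and 763 and 578 with the length trend removed. No direction among the 8 tested genes turned. Depth limits Adgre1, Cd14, C1qa and C1qb most, at about 8 to 58 reads per library.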

Other observations

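Genes of other blood and marrow cells, counted in the same limma fit, showed the following. Of 7 tested basophil and mast cell genes 6 rose and 0 fell (0 lower at an unadjusted p under 0.05), with Fcer1a, a chain of the IgE receptor, going from 1.88 ± 0.57 to 6.67 ± 0.65 FPKM and the mast cell protease gene Cpa3 from 18.2 ± 1.95 to 28.8 ± 2.54. Of 6 tested megakaryocyte and platelet genes 5 rose and 1 fell, with Itga2b (CD41) going from 36.1 ± 1.60 to 62.2 ± 4.30 FPKM. Of 3 tested dendritic cell genes 0 rose and 2 fell (0 higher at an unadjusted p under 0.05), Bst2 from 80.8 ± 1.61 to 68.7 ± 0.80 FPKM and Ccr9 from 1.495 ± 0.019 to 0.79 ± 0.08, the latter tested only through its CD libraries at the filter of 1 FPKM. Of 4 tested B cell genes 1 fell, Igll1, from 2.57 ± 0.42 to 0.49 ± 0.41 FPKM, also tested through the CD libraries alone, and of 5 tested erythroid genes 1 fell, Hbb-bt, from 4.78 ± 0.05 to 3.48 ± 0.31.

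Of 3 tested T and NK cell genes 2 rose and 1 fell, with Nkg7, which myeloid progenitors also express, going from 104 ± 2.76 to 136 ± 11.4 FPKM, and Klrb1c, the other riser, tested through the HCD libraries alone, while Cd3e was listed at 0 in all 6 libraries. Of 4 tested genes of endothelium and stroma 3 rose, Sparc through the HCD libraries alone at the filter, and 1 fell. Among them were Pdgfrb, from 15.7 ± 1.05 to 21.8 ± 0.33 FPKM, and Emcn, from 11.2 ± 0.45 to 7.80 ± 0.41. Of the 9 gate and stem cell genes Slamf1 rose from 1.79 ± 0.47 to 3.41 ± 0.27 FPKM and Hlf fell from 56.2 ± 0.76 to 48.8 ± 1.76.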
